A study of Mus musculus with 2 samples.

Results

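EGR1 peaks of the mouse frontal cortex were examined at 10 circadian clock genes, Per1, Per2, Per3, Cry1, Cry2, Clock, Arntl, Nr1d1, Nr1d2 and Dbp. A peak was counted at a gene when its centre lay in the gene body or within 10 kb of one of its transcription start sites (TSSs). By this rule, 21 of the 12014 deposited EGR1 peaks lay at clock genes, and 9 of the 10 genes had at least 1 peak. Only Clock had none. DNA bound by EGR1, a zinc finger transcription factor, was pulled down with an antibody and sequenced (ChIP-seq) from micro-dissected frontal cortices of 129SvEv/C57BL/6N F1 hybrid male mice at 6 weeks of age. These animals carried no engineered allele and received no treatment that the sources name. The deposited list merges 2 ChIP experiments, each on cortices pooled from several mice, and input DNA of the same tissue was sequenced as the control but had no processed file among those used here. The time of day at which the mice were killed is not given in the sources used here, and with a single list the peaks of one hour cannot be compared with those of another.

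The circadian clock is a loop of transcription that runs in nearly every cell of the body, cortical neurons included. CLOCK and ARNTL (also called BMAL1) bind together to E-boxes and switch on the Period and Cryptochrome genes, whose proteins enter the nucleus and repress their own activators. In a second loop, the nuclear receptors encoded by Nr1d1 and Nr1d2 (REV-ERBs) repress Arntl through a response element that they share with the ROR receptors, and DBP carries the rhythm on to genes with a D-box. EGR1 is encoded by an immediate-early gene that neuronal activity induces, and it binds GC-rich sites. A peak in bulk cortex does not tell in which of its cell types EGR1 was bound.

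The sequences of 9 peaks are shown because they hold the sites discussed next, or because they stand for the peaks with the lowest IDR. They were read from the GRCm38.p6 reference, which has the coordinates of mm10, and not from the reads of these hybrid mice. Each is printed 5′ to 3′ on the strand of its gene, and parts annotated as untranslated were left out. Capitals mark an EGR1 motif (GCGTGGGCG or GCGGGGGCG, on either strand), an E-box (CACGTG), a cAMP response element (CRE, TGACGTCA) or a D-box (TTATGTAA or TTACGTAA). The first 3 belong to Per1 and lie on the + strand, namely the peak before its first TSS (chr11:69095008-69095124), the peak with the CRE (chr11:69097119-69097368) and the peak with the lowest IDR of all clock genes (chr11:69100004-69100151). The Per3 promoter peak (chr4:151044745-151044994) and the Cry1 promoter peak (chr10:85185065-85185321) lie on the − strand. So do the peaks in intron 1 (chr11:98773728-98773901) and upstream (chr11:98783462-98783616) of Nr1d1 and the peak in intron 1 of Nr1d2 (chr14:18238458-18238707). The last stretch (chr11:69088322-69088489, + strand) is from a peak within 10 kb of Per1 that lay at the TSS of its neighbour Vamp2.
Per1 first start: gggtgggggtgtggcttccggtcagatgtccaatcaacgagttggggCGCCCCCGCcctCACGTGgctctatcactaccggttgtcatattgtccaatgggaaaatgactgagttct
Per1 CRE peak: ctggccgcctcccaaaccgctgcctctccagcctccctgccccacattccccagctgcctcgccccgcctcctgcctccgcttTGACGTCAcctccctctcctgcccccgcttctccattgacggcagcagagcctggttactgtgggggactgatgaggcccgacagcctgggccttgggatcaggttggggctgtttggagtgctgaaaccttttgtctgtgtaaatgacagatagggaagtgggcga
Per1 lowest IDR: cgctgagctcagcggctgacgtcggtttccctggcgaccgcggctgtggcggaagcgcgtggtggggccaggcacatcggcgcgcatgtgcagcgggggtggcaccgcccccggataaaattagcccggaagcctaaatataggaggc
Per3 promoter: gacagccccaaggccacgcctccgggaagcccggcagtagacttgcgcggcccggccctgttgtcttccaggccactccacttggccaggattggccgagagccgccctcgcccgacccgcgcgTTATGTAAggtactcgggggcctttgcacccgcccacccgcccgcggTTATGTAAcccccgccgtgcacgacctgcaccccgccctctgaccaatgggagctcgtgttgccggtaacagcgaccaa
Cry1 promoter: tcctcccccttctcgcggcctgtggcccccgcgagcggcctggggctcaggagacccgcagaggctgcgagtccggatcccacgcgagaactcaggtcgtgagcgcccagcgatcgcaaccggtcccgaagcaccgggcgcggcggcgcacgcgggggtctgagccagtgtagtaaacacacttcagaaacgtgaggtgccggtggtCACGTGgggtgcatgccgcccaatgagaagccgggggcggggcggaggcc
Nr1d1 intron 1: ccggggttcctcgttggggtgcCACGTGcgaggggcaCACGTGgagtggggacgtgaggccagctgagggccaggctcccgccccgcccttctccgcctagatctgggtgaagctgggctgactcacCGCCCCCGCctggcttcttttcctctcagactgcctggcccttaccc
Nr1d1 upstream: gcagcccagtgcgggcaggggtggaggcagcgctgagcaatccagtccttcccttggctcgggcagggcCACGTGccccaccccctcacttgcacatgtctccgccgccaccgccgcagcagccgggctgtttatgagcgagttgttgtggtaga
Nr1d2 intron 1: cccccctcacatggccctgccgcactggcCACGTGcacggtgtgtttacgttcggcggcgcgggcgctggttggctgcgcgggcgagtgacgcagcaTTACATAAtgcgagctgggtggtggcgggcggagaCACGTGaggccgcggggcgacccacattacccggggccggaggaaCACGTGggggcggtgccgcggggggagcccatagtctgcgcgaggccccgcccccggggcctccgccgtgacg
Vamp2 start near Per1: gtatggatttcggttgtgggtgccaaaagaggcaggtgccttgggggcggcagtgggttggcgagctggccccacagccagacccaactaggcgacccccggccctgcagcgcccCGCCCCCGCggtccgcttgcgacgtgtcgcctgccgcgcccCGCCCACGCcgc

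Of all peaks on assembled chromosomes, 55.6% had their centre within 1 kb of a protein-coding TSS of any gene, as did 15 of the 21 clock peaks. Of the 21 peaks, 12 had their centre within 1 kb of a TSS of the clock gene, and 8 of the 10 genes had such a peak. The exceptions were Clock and Dbp. Among all 21938 protein-coding genes, 39.6% (95% Wilson interval 39 to 40.3%) had a peak by the same rule, and 28.1% had a peak within 1 kb of a TSS. Promoters of clock genes are rich in CpG sites, and 9 of the 10 had a CpG ratio (observed over expected CpG sites) of 0.6 or more in the 300 bases around their start, of which 7 had a peak within 1 kb. Of all 9734 protein-coding genes with such a promoter, 46.4% had a peak within 1 kb of a TSS. These shares are descriptions of 1 list, and no test was made, since the list gives no values for the single experiments.

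Each peak comes with its irreproducible discovery rate (IDR), which is low where a peak ranked high and alike in both experiments, and which was at most 2% in the list. The peaks at clock genes had a median IDR of 1.81e-06, with quartiles of 2.53e-07 and 0.000202, whereas the median of all peaks was 0.000321. Of the 21 peaks, 11 were among the 25% of the list with the lowest IDR, and 3 were among the 25% with the highest. Peaks within 1 kb of any protein-coding TSS had lower IDRs in general, with a median of 7.11e-05, and 33.6% of them were among that lowest 25%. At the level of genes, 5 of the 10 clock genes (Per1, Cry2, Arntl, Nr1d1 and Dbp) had a peak among the lowest 25%, beside 15.2% of all protein-coding genes. Those of Dbp lay at start sites of its neighbours, which leaves 4 genes when each peak is given to the gene with the nearest TSS. The 15.2% includes peaks of neighbours too and was not recomputed in that way. Nor was it recomputed for genes with a promoter CpG ratio of 0.6 or more, which 9 of the 10 clock genes had.

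**Figure D1:**
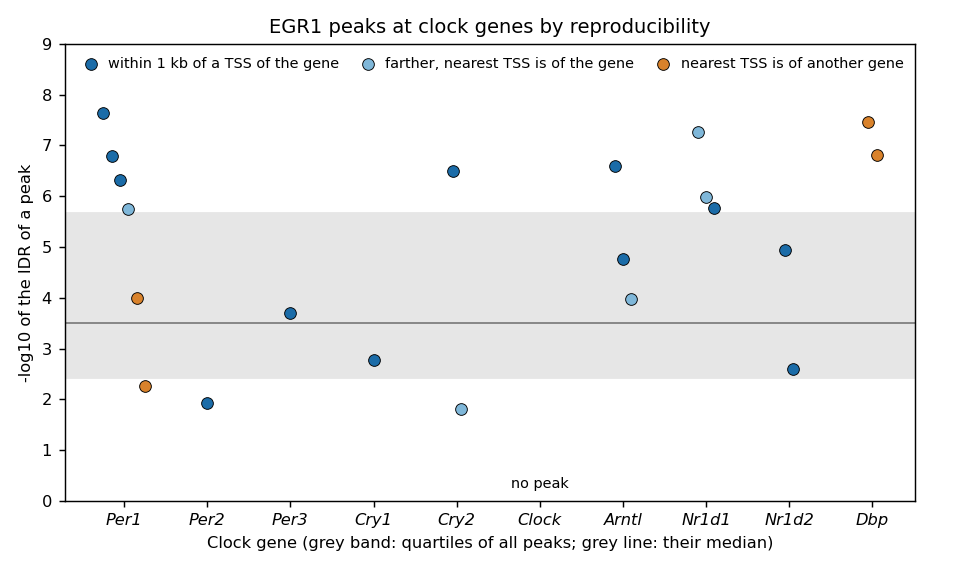
Each point is 1 EGR1 peak at a clock gene, with the −log10 of its IDR on the vertical axis, and colours show where it lay. The grey band spans the quartiles of all 12014 peaks and the grey line is their median of 0.000321. Per1 reached 2.28e-08, whereas the single peak of Per2 had an IDR of 0.012.

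The Period genes, which encode the repressors PER1 to PER3, differed widely. Per1 (chromosome 11, 69095217 to 69109960, + strand) had 6 peaks. Of all protein-coding genes, 76 (0.346%) had 6 or more. The nearest TSS was that of Per1 for 4 of its 6 peaks, and they lay in a stretch of 5195 bp. This stretch covers the annotated starts of Per1 except those of Per1-203 and Per1-205, which fell beyond its end. The first peak, with an IDR of 1.6e-07, was centred 151 bp upstream of the most upstream TSS, that of Per1-202. The next, with an IDR of 1.81e-06, lay inside the gene, 2026 bp from its 5′ end and 1704 bp upstream of the TSS of Per1-201. Another was centred 20 bp upstream of that TSS, with an IDR of 4.89e-07. The fourth had the lowest IDR of all peaks at clock genes, 2.28e-08 (rank 148 of 12014), and lay in intron 1 of Per1-201, 49 bp upstream of the TSS of the shorter form Per1-204. The centres of neighbouring peaks in this stretch were 2178, 1684 and 1176 bp apart, so every annotated start of Per1 had a peak within 419 bp. In all, 1.12% of protein-coding genes had 4 or more peaks whose nearest TSS was their own.

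The other 2 peaks within 10 kb of Per1 lay closer to Vamp2, which encodes a SNARE protein of synaptic vesicles. One, with an IDR of 9.92e-05, was centred 38 bp from the Vamp2 TSS and 6765 bp upstream of Per1. The other, with an IDR of 0.00552, was 1230 bp from the Vamp2 TSS and had a CpG ratio of 0.13, the lowest of the 21 peaks. Which of the genes these peaks act on was not tested.

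Per2 and Per3 had a single peak each. The Per2 peak (chromosome 1, 91458341 to 91458601) lay in intron 1, 853 bp downstream of the TSS, with an IDR of 0.012, which placed it at rank 10989 of 12014. No peak covered the Per2 promoter itself, which has a CpG ratio of 1.16, the highest among the 10 genes. The Per3 peak was centred 204 bp upstream of the TSS with an IDR of 0.000202. It also lay in the body of Camta1, a gene for a calmodulin-binding transcription activator whose annotation overlaps Per3's start. On the scale of IDR, the best Period peak was thus that of Per1, followed by those of Per3 and then Per2, and the list gives no error by which to compare them.

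The Cryptochrome genes, whose proteins hold CLOCK and ARNTL in check together with PER, both had a peak at the promoter. At Cry1 (chromosome 10, 85131700 to 85185064, − strand) the peak was centred 126 bp upstream of the TSS with an IDR of 0.00172. At Cry2 (chromosome 2, 92403646 to 92434043, − strand) it was 292 bp upstream with an IDR of 3.2e-07, among the lowest 25% of the list. A second Cry2 peak lay over coding exon 2, 7112 bp from the start of the gene. Its IDR of 0.0153 was the highest of the 21 peaks, and its CpG ratio of 0.26 was far below the 0.98 of the promoter peak.

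The activator pair was split. Arntl (chromosome 7, 113207465 to 113314126, + strand) had 3 peaks. One was centred 6 bp upstream of the first TSS with an IDR of 1.76e-05, and one lay in intron 1, 420 bp downstream of the TSS of Arntl-204, with an IDR of 2.53e-07. The centres of this pair were 518 bp apart. The third, in intron 3 at 39872 bp from the gene's start, had an IDR of 0.000106 and, unlike the pair at the promoter, few CpG sites, with 2 in 260 bp and a CpG ratio of 0.15.

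Clock (chromosome 5, 76209868 to 76304792, − strand) had no peak in its body of 94.9 kb or near its starts. The nearest peak to any Clock TSS was 224462 bp away, at the TSS of Exoc1, a gene for a subunit of the exocyst. The Clock promoter was not poor in CpG sites. It held 42 of them in 300 bases, of which 76.3% were G or C. Its CpG ratio of 0.97 lay beside those of the promoters of Cry1 (0.99) and Per3 (1.02), where peaks were found. Of all protein-coding genes with a promoter CpG ratio of 0.6 or more, 46.4% had a peak within 1 kb of a TSS. A CpG-rich promoter without a peak was therefore common. A gene with no peak in a list of reproducible peaks may still be bound at a level that did not pass the threshold.

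Both REV-ERB genes had peaks. Nr1d1 (chromosome 11, 98767932 to 98775333, − strand) is only 7.4 kb long and had 3 peaks, all among the lowest 25% of the list. The one with the lowest IDR, 5.37e-08, was 8206 bp upstream of the start, and the TSS of Nr1d1 was still the nearest TSS of any gene. The next, with an IDR of 1.05e-06, lay in intron 1, and the last, with an IDR of 1.74e-06, lay over coding exon 5. This exonic peak was also 140 bp from the start of Nr1d1-202, a processed transcript without a coding sequence, and is the sole reason why Nr1d1 counts as having a peak within 1 kb of a TSS. The TSS of the coding transcript had its nearest peak 1518 bp downstream. Its promoter had a CpG ratio of 0.58, the lowest of the 10 genes.

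Nr1d2 (chromosome 14, 18204054 to 18239127, − strand) had its peaks at the start instead. One was centred 24 bp upstream of the TSS with an IDR of 1.12e-05, and the other lay in intron 1, with an IDR of 0.00258 and a centre 569 bp from the first. The intron 1 peak had the highest CpG ratio of all 21, at 0.99.

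Dbp (chromosome 7, 45705088 to 45710203, + strand), the output gene, had 2 peaks by the rule but none at its own start. Both belonged by distance to its neighbours. The peak with an IDR of 1.55e-07, 4346 bp upstream of Dbp, was 274 bp from the TSS of Car11, which encodes a carbonic anhydrase-related protein. That with an IDR of 3.49e-08, beyond the 3′ end of Dbp, was 43 bp from the TSS of Sphk2, a sphingosine kinase gene. A further peak at the TSS of Rpl18, 10210 bp from the nearest Dbp start, fell just outside the limit. The body of Dbp held no peak, and its promoter had a CpG ratio of 0.69.

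**Figure D2:**
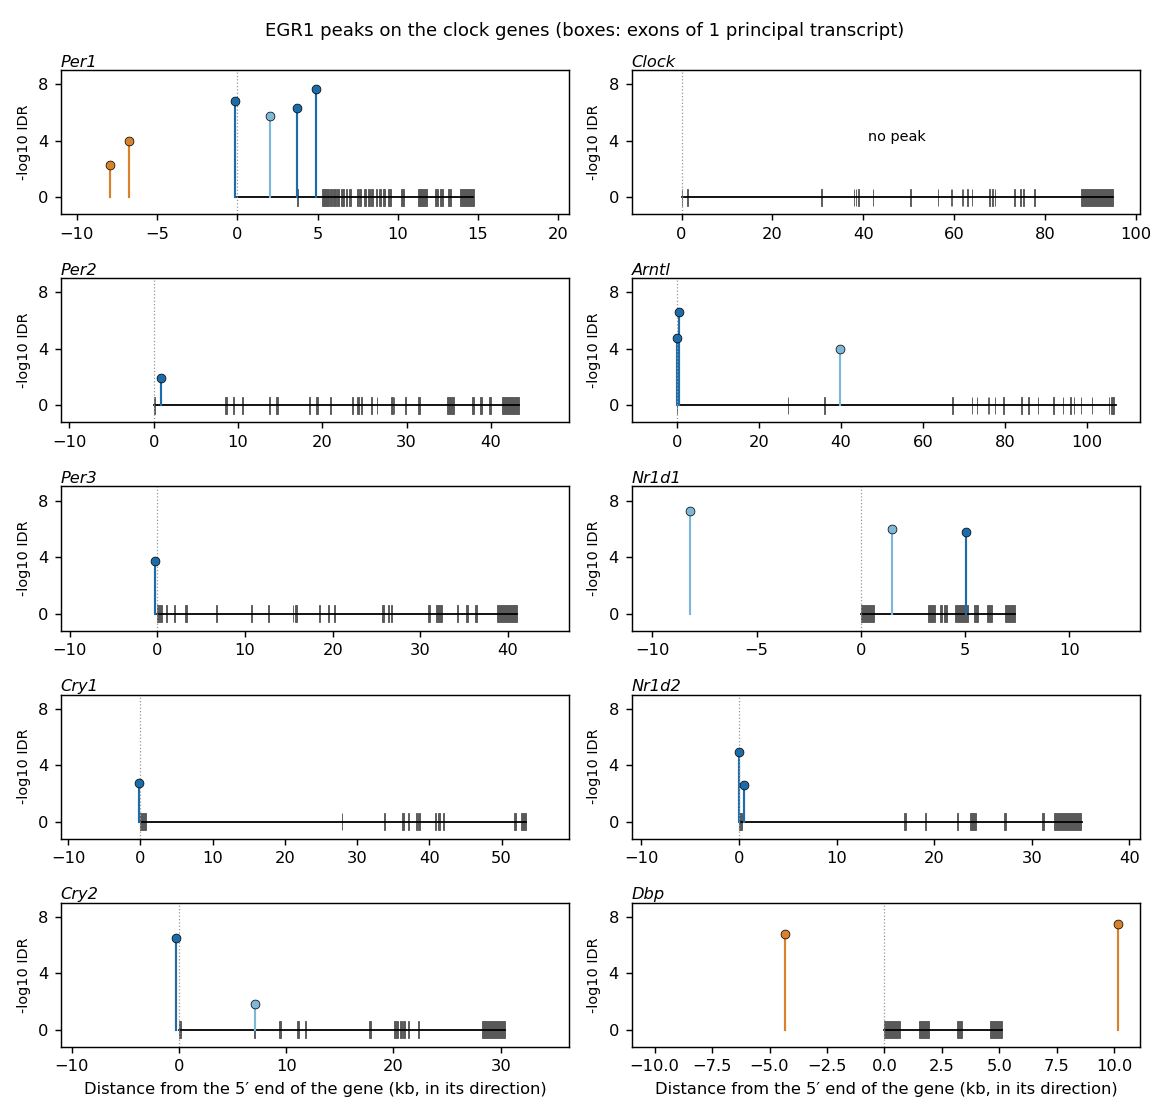
Each panel shows 1 clock gene from its 5′ end, in kb and in its own direction, with the exons of 1 principal transcript as boxes and the EGR1 peaks as stems whose height is −log10 of the IDR. Colours are blue for peaks within 1 kb of a TSS of the gene, light blue for others nearest to that gene, and orange for peaks nearest to a neighbour's TSS. Per1 has 4 blue or light blue stems at its starts, Clock has no stem, and both stems of Dbp are orange.

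The canonical EGR1 motif was found in a minority of these peaks, as it was in the list as a whole. GCGTGGGCG or GCGGGGGCG was found on either strand in 3 of the 21 peaks, namely the first Per1 peak, the intron 1 peak of Nr1d1 and the peak at the Vamp2 TSS, which held it 2 times. It was found in 16.6% of all 11938 peaks on assembled chromosomes. Allowing 1 base to differ, 15 of 21 clock peaks had a match, beside 69.8% of all peaks. The Per1 peak with the lowest IDR had no exact match. It had 2 sites with 1 difference, C8T at 3 bp and G1C at 10 bp from the centre (positions counted from 1 at the 5′ end of the motif, whose base is given first). A GC box (GGGCGG), which can overlap the end of an EGR1 motif, was present in 15 of 21 peaks and in 55.8% of all peaks. A motif match is a description of the letters and does not show which factor was bound.

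Elements known from the clock itself were also searched in the same intervals. The E-box CACGTG, to which CLOCK and ARNTL bind, was found in 5 of the 21 peaks, whereas 7.46% of all peaks had one. These were the first Per1 peak, the Cry1 promoter peak, the upstream and intron 1 peaks of Nr1d1 and the intron 1 peak of Nr1d2, which held 3 E-boxes. In 250-bp windows around the centres, which have equal lengths, the counts were again 5 of 21, and 7.79% of all peaks. The D-box, bound by DBP and its relatives, occurred in 2 of 21 peaks and in 0.662% of all peaks. The Per3 promoter peak had 2 copies of TTATGTAA, at 3 and 50 bp from its centre, and the intron 1 peak of Nr1d2 had 1. The CRE was found only in the Per1 peak 2026 bp inside the gene (1 of 21, and 1.30% of all peaks), 38 bp from its centre. The ROR element TAGGTCA was found only in the Arntl promoter peak (1 of 21, and 0.997% of all peaks), 84 bp from its centre. In windows of 250 bp, the other motifs were found in as many clock peaks, and in 17% (EGR1), 0.704% (D-box), 1.42% (CRE), 1.05% (ROR element) and 56.5% (GC box) of all peaks. RefSeq promoters, of 300 bases, were at hand for 9 of the 10 genes, 13 in all. None of these 13 had an exact EGR1 motif, which 3.47% of all 32851 promoters had, and an E-box was found in 1 promoter each of Per1 and Cry1, beside 7.15% of all promoters. These genes were chosen as clock genes, and such elements are part of what is known of their promoters, so their presence is not independent of how the genes were chosen.

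The EGR1 motif and an E-box were found together in 2 peaks, beside 1.22% of all peaks. In the first Per1 peak they were separated by 3 bases, as the adjoining capitals in its sequence show, and both lay within 7 bp of the peak's centre. An EGR1 motif within 10 bases of an E-box was found in 0.276% of all peaks. In intron 1 of Nr1d1 the sites were 84 bases apart. The pairing of these elements was looked at after their sites had been seen.

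The same letters also occurred outside the peaks. In the bodies and 10-kb surroundings of the 10 genes, which cover 550.8 kb with 0.852% of it in peaks, there were 7 EGR1 motifs, of which 4 lay in a peak. All 3 in the neighbourhood of Per1 and the single one of Nr1d1 did so, but neither of the 2 at Arntl nor the single one at Dbp did. Of the 3 near Per1, however, 2 lay in the peak at the Vamp2 TSS. Around all protein-coding genes, 33.3% of the EGR1 motifs lay in a peak. Of the 81 E-boxes around clock genes, 8 (9.88%) lay in a peak, beside 0.58% around all protein-coding genes, where 0.198% of the sequence was in peaks. All 3 E-boxes of Nr1d2, 3 of the 8 of Nr1d1 and 1 of the 7 at each of Per1 and Cry1 were in a peak. None of the 14 at Per3, the 13 at Arntl, the 7 at Cry2, the 6 at Dbp or the 5 at Per2 was. Nor could any of the 11 at Clock be, since Clock had no peak. These counts were likewise added after the peaks had been seen, and the overlap of E-boxes with CpG-rich promoters was not separated from them.

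The peaks of clock genes varied in base composition. Their GC content ran from 48.8 to 73.9%, with a median of 67.1%, and that of all peaks had a median of 60.4%. Their CpG ratio had a median of 0.65, close to the median of 0.6 of all peaks, with quartiles of 0.413 and 0.895. In 17 of the 21 peaks the ratio was higher than the mean of equal windows 5 kb to each side, where the median was 0.272. No share over all peaks is given beside this count, so it cannot be read as particular to clock genes. The lowest ratios were those of peaks away from starts, 0.13 near Vamp2, 0.15 in intron 3 of Arntl and 0.26 in exon 2 of Cry2, and that of the Per2 intron 1 peak was 0.27. Of the 21 peaks, 15 were within 1 kb of a protein-coding TSS of any gene, as were 55.6% of all peaks. Peaks within and beyond 1 kb of a TSS had median CpG ratios of 0.782 and 0.31 in the list as a whole. Widths were 117 to 264 bp.

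**Figure D3:**
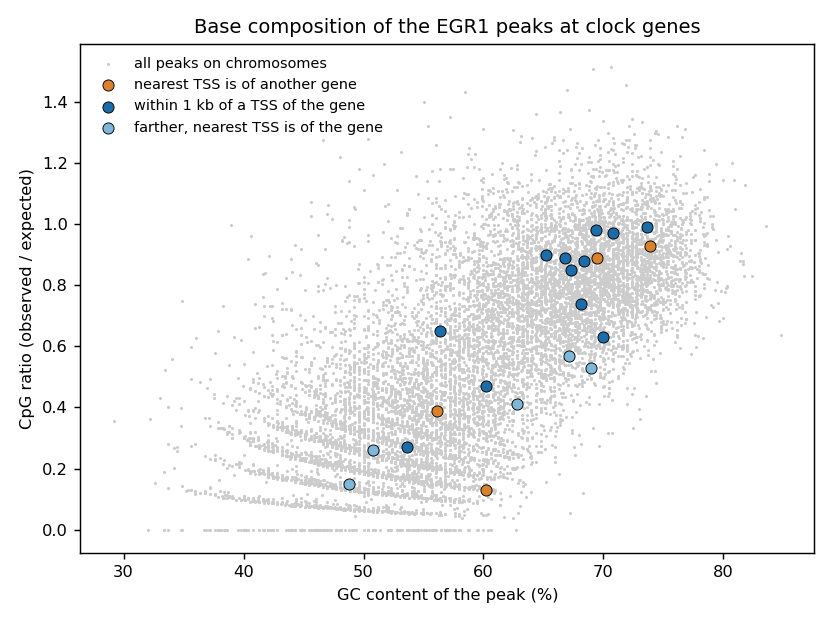
Each point is 1 EGR1 peak, with its GC content in % on the horizontal axis and its CpG ratio (observed over expected) on the vertical axis. Grey points are the 11938 peaks on assembled chromosomes and large points are the 21 peaks at clock genes, which run from a ratio of 0.13 to one of 0.99.

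Peaks were also counted at further genes that act on the clock. In a list of 24, 16 genes had a peak by the rule, beside 39.6% of all protein-coding genes, and 14 had one within 1 kb of a TSS, beside 28.1%. Of protein-coding genes with a promoter CpG ratio of 0.6 or more, 58.1% had a peak by the rule and 46.4% one within 1 kb. The 24 genes were not sorted by this ratio, and their list was chosen with earlier results of these data known. Together the 16 genes held 25 peaks with a median IDR of 0.000401. The EGR1 motif was found in 6 of these 25 peaks, beside 16.6% of all peaks. With 3 or more peaks stood Tef and Usp2, as did Per1, Arntl and Nr1d1 among the 10 clock genes, whereas 4.82% of protein-coding genes had as many.

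Among relatives of DBP, the PAR-domain factors that bind the D-box, Tef had 3 peaks, with IDRs of 2.15e-07, 2.33e-07 and 0.00223, and each lay within 366 bp of a TSS of Tef. Hlf had 1, centred 87 bp upstream of its TSS with an IDR of 0.00124. Nfil3, which competes for the same element, had none. Among the ROR receptors, which oppose the REV-ERBs at their element, Rora had peaks at 2 starts, with IDRs of 0.000401 and 0.0153, and Rorb had 1 at its promoter (0.000609). Npas2, the paralogue of Clock, had a peak 528 bp upstream of its TSS with an IDR of 5.79e-05, although Clock had none. Conversely, Arntl2, the paralogue of Arntl, had none.

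The bHLH repressors Bhlhe40 and Bhlhe41 (DEC1 and DEC2) had 2 peaks each, with lowest IDRs of 4.08e-07 and 0.00024. Timeless, which takes part in the replication checkpoint, had 2, the lower at 9.17e-08. The lowest IDR among these 24 genes was 5.98e-08, at the promoter of Fbxl21, an F-box gene whose protein acts on cryptochromes. Among the kinases and ubiquitin enzymes that act on PER proteins, Csnk1d had a peak 42 bp upstream of its TSS (0.00044). Fbxw11 had a peak (0.00131) 4 bp from the TSS of Fbxw11-204, a processed transcript, and 64 bp from the gene's 5′ end. Csnk1e and Btrc had none. Gsk3b had a peak in exon 1 with an IDR of 0.000115, and that of the deacetylase gene Sirt1, with an IDR of 3.02e-07, lay at an internal start, 58 bp upstream of it. Usp2, a deubiquitinase gene, had 4 peaks with IDRs from 5.33e-07 to 0.0165, each within 938 bp of one of its starts. The single peak of Nono lay 92 bp from the TSS of Zmym3. Ciart, Kdm5a and Ppargc1a also had no peak.

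**Figure D4:**
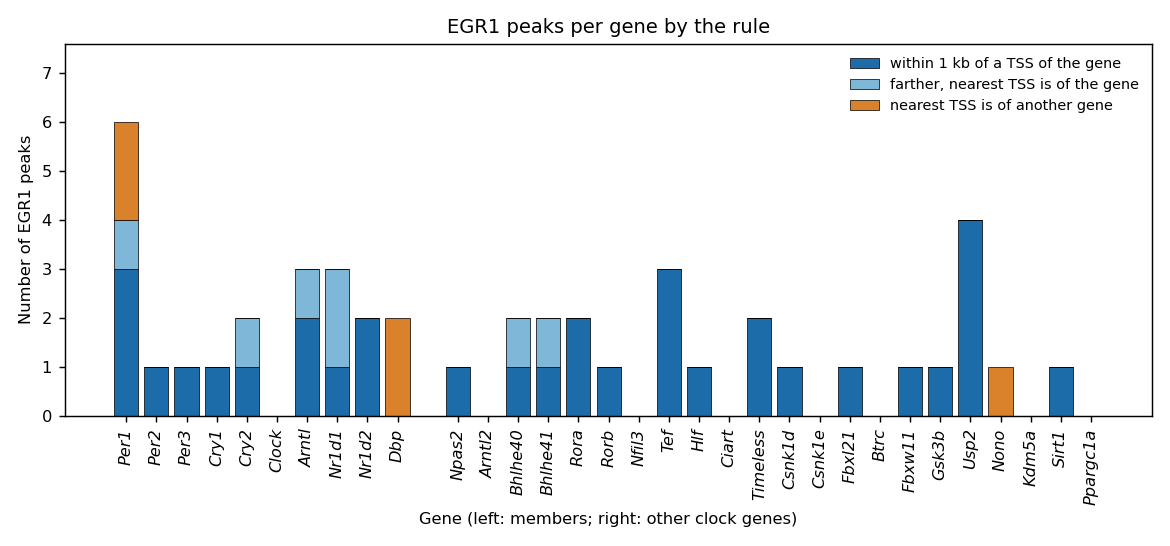
Bars give the number of EGR1 peaks at each of the 10 clock genes (left) and at further genes that act on the clock (right), stacked by where the peaks lay. Per1 has 6 peaks, Usp2 has 4, and Clock, Arntl2 and Nfil3 are among the genes with 0.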

How the data were processed

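The deposited file is a list of EGR1 peaks with a p-value-like measure, the IDR of each, read like a q-value. Per the study's methods, reads were trimmed by the authors and aligned to mm10 (Bowtie), SPP called peaks in either experiment, and those that passed an IDR of 2% were merged. The submitters' processing notes name Bowtie2 2.2.9 and bedtools 2.26.0. Without counts in the list, depth is unknown, and neither a spread between experiments nor a test could be had.

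Starts were taken to follow the BED convention, and every position printed here counts from 1. Chromosome names and lengths were compared with GRCm38.p6, and 76 peaks on scaffolds were left out of sequence counts. Genes and TSSs are from GENCODE release M21. A 95% Wilson interval, which covers counting error only, is given for the share of all protein-coding genes with a peak. The promoter of a gene was taken as 250 bases before to 50 after its 5′ end. The named genes are all members, further clock genes with a peak, and the genes nearest to the peaks, and some of the further genes are counted but not reported here by name. The members and lists were chosen with earlier results of these data known. Python 3.11.15, numpy 2.4.6, scipy 1.17.1, pysam 0.24.0, matplotlib 3.10.9 and samtools 1.23.1 were used. The functions were tested on simulated data, where 200 of 200 gene assignments and 300 of 300 motif states were recovered.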

Additional observations from a re-analysis of the deposited data

How the results depend on the processing

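The list merges the experiments, so none could be left out. No paired analysis was possible because the results come from no test and single-experiment values were not used here. Of 84 recomputed values, 68 stayed within 1.5 times the reported count or median, or within the interval of the reported share, and 16 did not. Counting the gene body alone left 10 peaks at clock genes, 1 of them with the EGR1 motif, and 9 of the 24 further genes. It also left 6 clock genes with a peak instead of 9, a count just within the limit of 1.5 times. With 1 base allowed to differ, 15 peaks had the EGR1 motif. The median IDR was 7.695e-07 for peaks with an IDR of 0.1% or less and 6.505e-06 with a distance of 2 kb. The share of protein-coding genes with a peak was 37.0% and 29.0% with an IDR of at most 1% and 0.1%, 36.0%, 34.2% and 45.9% with distances of 5, 2 and 20 kb, 23.9% in gene bodies, 38.4% with basic transcripts, 31.4% with peaks nearest to their own TSS, 23.0% over all annotated genes and 58.1% with CpG-rich promoters. With an IDR of at most 1%, Per2 lost its peak, and with one of at most 0.1%, Cry1 did as well. With basic transcripts, 7 clock genes had a peak within 1 kb, since Nr1d1 dropped out, and with peaks nearest to their own TSS, 8 genes had a peak, since Dbp did.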
